A study of Homo sapiens with 36 samples.

Results

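The miRNAs described here were miR-221 and miR-222, both arms of each hairpin, taken by name from a count table of human miRNAs. The rule named 4 rows, hsa-miR-221-3p, hsa-miR-221-5p, hsa-miR-222-3p and hsa-miR-222-5p, of 1508 rows in all. All 4 were among the 360 miRNAs that had enough counts to be tested. The cells were WI-38, a normal human lung fibroblast strain that stops dividing after a limited number of doublings, and every library held the small RNA of such cells. Untreated, young, proliferating cells were the control (Ctrl). Plasma membrane damage-dependent senescence (PMD-Sen) followed a 24 h exposure to 0.0095% sodium dodecyl sulphate (SDS), and senescence that depends on the DNA damage response (DDR-Sen) followed a 24 h exposure to 250 nM doxorubicin (DXR), which breaks DNA. Both were sampled at the end of the exposure, before washout (D0), and then daily from D1 to D4 and on D6, D8 and D16, in days from washout. Replicative senescence (RS) was the state of untreated cells cultured to a population doubling level of 54 to 56. These 18 conditions had 2 biological replicates each, 36 libraries in all. The cells were 1 strain throughout, so the replicates measure the spread between cultures of that strain. A library averages over its cells, so less of a miRNA in every cell and fewer cells that hold it cannot be told apart.

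Both hairpins are transcribed as part of 1 long precursor, cut out by Drosha, and diced into a pair of short strands. The strand that stays in Argonaute, the guide, pairs through its seed with sites in mRNAs and lowers their output, and the other strand, the passenger, is mostly degraded. The 3p arms are the guides of this pair. They are known as repressors of CDKN1B (p27) and CDKN1C (p57), inhibitors of cyclin-dependent kinases that hold the cell cycle, and are abundant in proliferating cells of many tissues. CDKN1B mRNA and protein were not analysed here.

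The mature sequences below show what both guides share, with the seed, bases 2 to 8 from the 5′ end, in capitals. They are RefSeq sequences on GRCh38.p14, and 3 of the 4 names matched an entry.
hsa-miR-221-3p: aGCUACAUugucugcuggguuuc
hsa-miR-222-3p: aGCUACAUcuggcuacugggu
hsa-miR-222-5p: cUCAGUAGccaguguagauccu

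The guides had the same first 8 bases, and 11 of the 21 positions that both strands cover were identical when read from the 5′ end. Of 2545 human mature sequences in the same table, these 2 were the only ones with this seed, and hsa-miR-222-5p was the only one with its own. The hairpins follow, with the listed mature arms in capitals, to show where each arm lies.
MIR221: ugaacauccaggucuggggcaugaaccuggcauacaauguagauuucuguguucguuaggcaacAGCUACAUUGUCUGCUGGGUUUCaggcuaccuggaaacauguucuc
MIR222: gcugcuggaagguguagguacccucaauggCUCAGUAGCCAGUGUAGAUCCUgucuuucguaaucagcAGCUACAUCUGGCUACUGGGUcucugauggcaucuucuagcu

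MIR221 lies at chrX:45746157-45746266 and MIR222 at chrX:45747015-45747124, both on the minus strand of GRCh38, with 748 bases between them. In the GENCODE release 44 annotation both lie in the intron of a 2-exon transcript of the lncRNA gene MIR222HG (chrX:45745210-45770274). The end of the MIR221 hairpin also shares 24 bases with the single exon of a shorter MIR222HG transcript. The promoter of that gene, 250 bases before to 50 bases after its RefSeq start (chrX:45770218-45770517, minus strand), is shown because both hairpins lie in its transcript. The RefSeq start, at position 45770267, lies 7 bases inside the GENCODE gene. Capitals mark matches to the letters TATAA and CCAAT, searched on both strands together with TGANTCA (the AP-1 motif) and CACGTG (the E-box).
MIR222HG promoter: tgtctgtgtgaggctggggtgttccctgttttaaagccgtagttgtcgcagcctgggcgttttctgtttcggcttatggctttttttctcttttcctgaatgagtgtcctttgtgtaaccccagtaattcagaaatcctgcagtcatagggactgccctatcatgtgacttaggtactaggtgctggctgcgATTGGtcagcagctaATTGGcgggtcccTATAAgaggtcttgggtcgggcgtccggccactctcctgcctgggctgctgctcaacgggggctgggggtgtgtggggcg

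TATAA matched 1 time, 30 bases before the RefSeq start, and CCAAT matched 2 times on the opposite strand, 58 and 43 bases before it. These matches did not overlap. Among 35116 promoter windows of this length, 20.44% held TATAA and 34.61% held CCAAT. The letters TGANTCA, held by 7.71% of the windows, and CACGTG, held by 7.26%, had no match here.

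The complement of the seed, ATGTAGC in DNA letters, occurs in the 3′ untranslated region of both named targets, and the sites are shown in capitals with their flanks.
CDKN1B site 1: ctctaaaagcgttggATGTAGCattatgca
CDKN1B site 2: tagtttttaccttttATGTAGCacataaac
CDKN1C site 1: cggctgggaccgttcATGTAGCagcaaccg

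The CDKN1B windows lie at chr12:12721213-12721242 and chr12:12721286-12721315 on the plus strand, and the CDKN1C window at chr11:2883821-2883850 on the minus strand. CDKN1B had 2 matches in 1342 bases. Of 8248 transcripts with at least that much 3′ untranslated sequence, 0.22% had 2 or more matches within the same length and 6.62% had at least 1. CDKN1C had 1 match in 703 bases, a length in which 3.27% of 11607 transcripts had one. A match describes the letters and is not a measurement of binding.

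Libraries held 81668 to 1933435 miRNA counts, with a median of 376989, and the 2 PMD-Sen D0 libraries, with 104439 and 81668 counts, were the smallest. Levels are given as CPM, the count of a miRNA relative to all miRNA counts of its library, and here without further scaling. Fibroblast-enriched miRNAs such as miR-143-3p and miR-199a-3p were detected in all 36 libraries, as were 5 of the 6 fibroblast markers, and the other, miR-199b-5p, was at 0 in 1 library (summed level 8751 to 32155 CPM). Epithelial markers (7 of 7 detected) summed to at most 173 CPM, leukocyte markers (3 of 4 detected) to at most 9.09, muscle markers (3 of 3) to at most 40.1 and erythroid markers (1 of 2) to at most 13.3. The liver marker miR-122-5p and the endothelial marker miR-126-3p were detected in every library, at 6.16 to 279 and 19.1 to 183 CPM, and the neuronal marker miR-124-3p was at 0 in 35 libraries and at 4.51 CPM in the other. Each of these was far under the guides, and their part in the results was not tested.

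The guides were among the most abundant miRNAs of these fibroblasts and their 5p arms were not. From here on CPM are scaled between libraries with trimmed mean of M-values (TMM) factors. hsa-miR-222-3p averaged 64688 CPM over the 36 libraries, rank 3 among the tested miRNAs, and stood between rank 1 and rank 8 in single libraries. hsa-miR-221-3p averaged 20171 CPM, rank 14. hsa-miR-221-5p averaged 1392 CPM (rank 70) and hsa-miR-222-5p 28.9 CPM (rank 278). Together the 2 guides took 10.5% ± 1.69 (SD, n = 2) of all counts in Ctrl and 5.14% ± 0.506 (SD, n = 2) in RS, and between 4.79% and 11.7% in single libraries. hsa-miR-222-5p rested on a median of 10 counts per library, and 8 of 36 libraries held 3 or fewer. A zero count in a library still allows up to 3 counts, which in the smallest library is 36.7 CPM before TMM scaling.

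**Figure D1:**
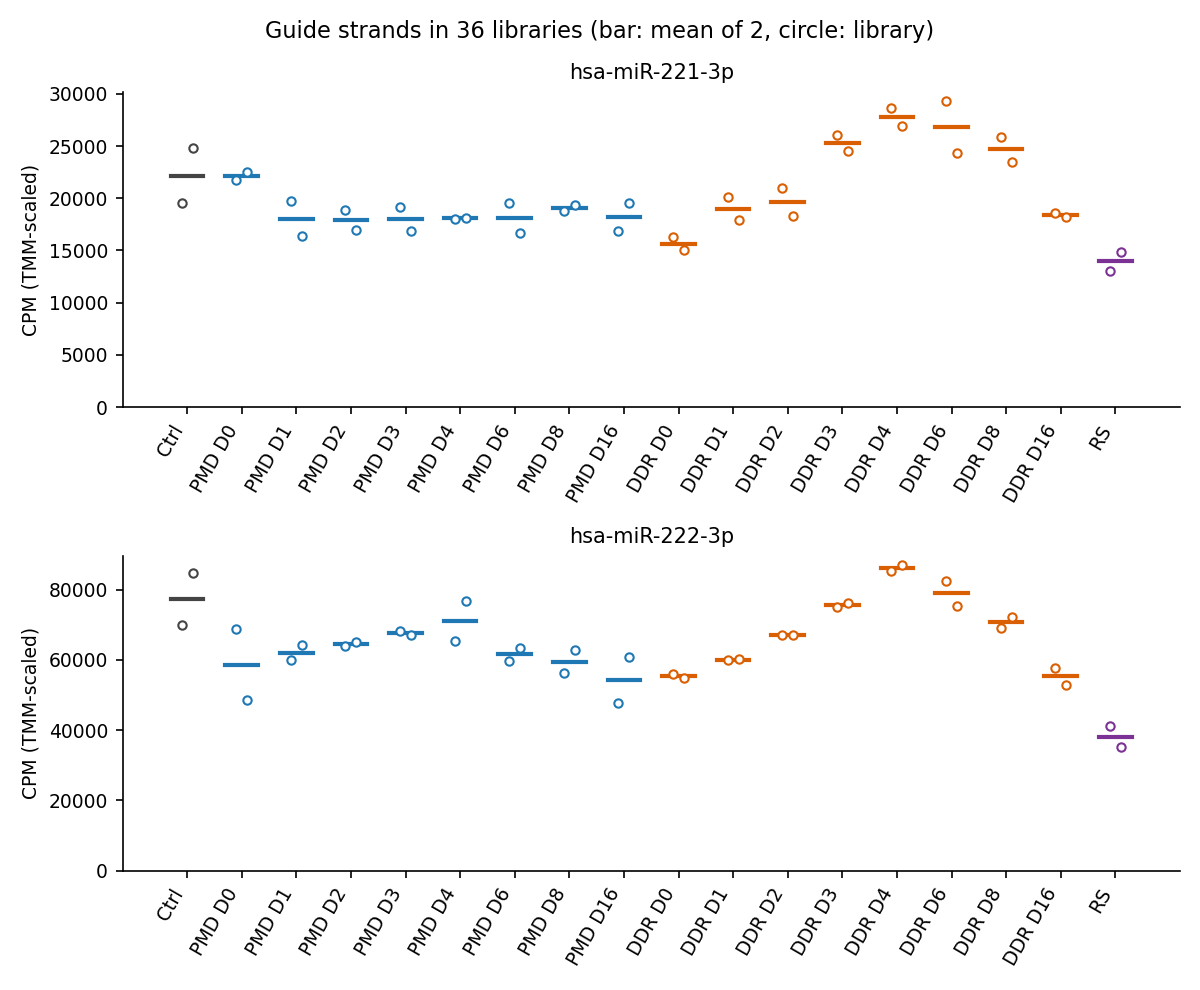
Level of hsa-miR-221-3p (top) and hsa-miR-222-3p (bottom) in CPM on a linear axis from 0, by condition, with a circle for each library and a bar for the mean of 2. Both RS libraries lie under every other library in both panels. DDR-Sen D4 has the highest mean with TMM scaling, but not as a share of counts without it.

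In RS both guides were lower than in young Ctrl cells, and so were both 5p arms. hsa-miR-222-3p was at 69984 and 84744 CPM in Ctrl and at 41196 and 35096 CPM in RS. hsa-miR-221-3p was at 19531 and 24799 CPM in Ctrl and at 13069 and 14853 CPM in RS. For both guides the 2 RS libraries were lower than each of the other 34 libraries, as they were for 3.89% of all tested miRNAs. hsa-miR-221-5p stood at 1575 and 1736 CPM in Ctrl and at 967 and 1167 CPM in RS, without overlap, and 4 of the other 34 libraries, among them both of PMD-Sen D1, lay under the higher RS value. hsa-miR-222-5p was counted 4 and 20 times in Ctrl and 1 and 5 times in RS.

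All 4 members fell in RS by the quasi-likelihood test of edgeR, adjusted over the 360 tested miRNAs by the Benjamini-Hochberg method, where 22.5% of the tested miRNAs were called. hsa-miR-222-3p fell by 1.02 ± 0.16 (SE) on the log2 scale, 2.03-fold, with adjusted p = 1.47e-05. hsa-miR-221-3p fell by 0.67 ± 0.16 (SE), 1.59-fold, with adjusted p = 0.00179. The change of hsa-miR-221-5p was −0.63 ± 0.22 (SE) with adjusted p = 0.0391, and that of hsa-miR-222-5p was −2.73 ± 0.97 (SE) with adjusted p = 0.0406. For hsa-miR-222-5p the summed counts were 6 in RS and 24 in Ctrl, a ratio of shares of 0.13 with a 95% counting interval of 0.0433 to 0.325, which covers counting error only. The median change was −0.84 over the members and 0.12 over all tested miRNAs. With the thresholds of the study, an unadjusted p under 0.05 and an absolute log2 fold change above 1, hsa-miR-222-3p and hsa-miR-222-5p passed, 2 of 4, where 22.2% of all tested miRNAs passed. The calls of the other 3 members were lost with a library left out. Without the second Ctrl library, the change was −0.48 with adjusted p = 0.087 for hsa-miR-221-3p, −0.56 with 0.198 for hsa-miR-221-5p and −1.56 with 0.495 for hsa-miR-222-5p. The call of hsa-miR-221-5p was also lost without the first Ctrl library (−0.70) or the first RS library (−0.51), and that of hsa-miR-222-5p without the first (−2.25) or the second (−4.01) RS library. The −4.01 rests on 1 count in RS, under the floor of 3 counts, and is no exact fold. The call of hsa-miR-222-3p held with each library left out in turn (−1.15 to −0.88).

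**Figure D2:**
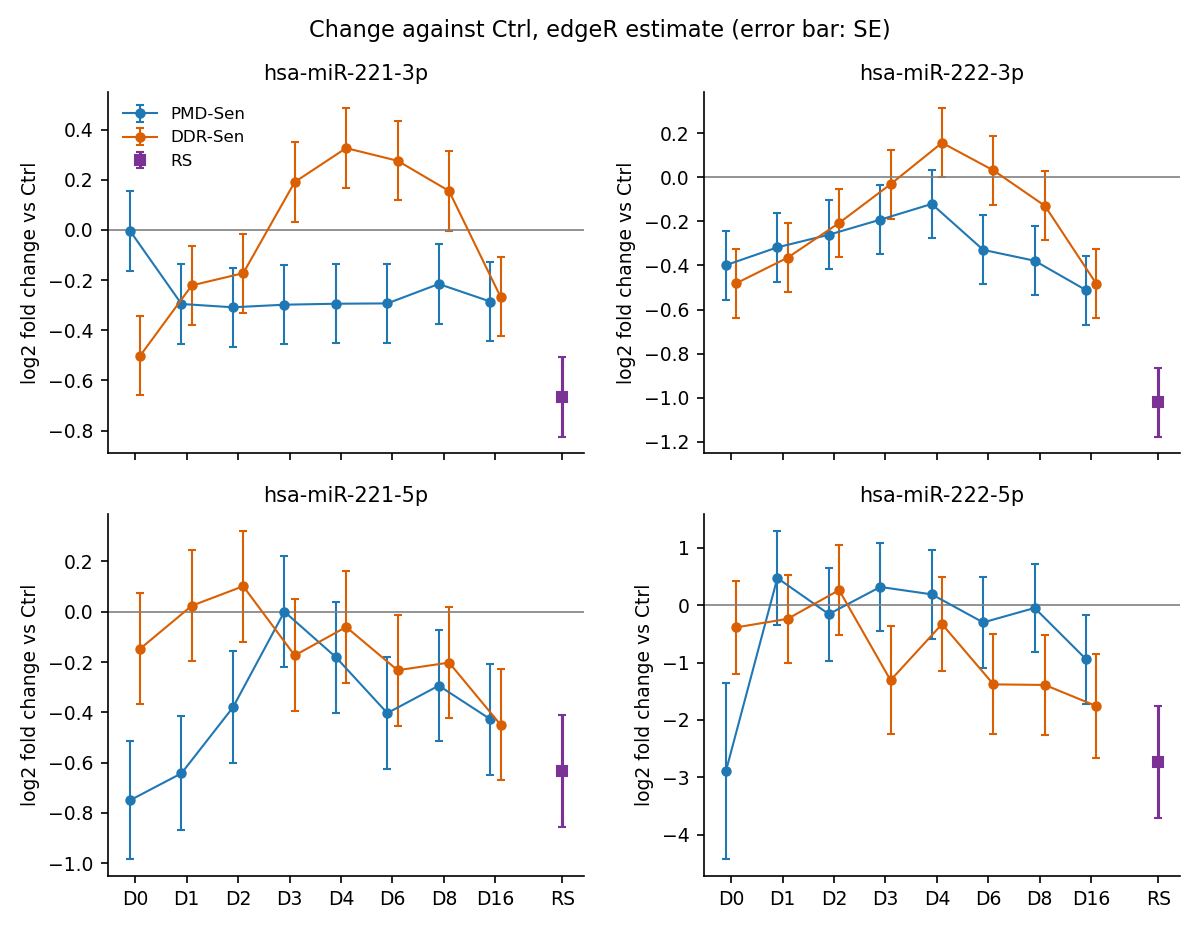
Change of each member against Ctrl on the log2 scale, by day, for PMD-Sen (blue), DDR-Sen (orange) and RS (purple square), with error bars of 1 SE from the edgeR fit. hsa-miR-221-3p is under 0 at each PMD-Sen day from D1 and close to 0 at D0, where its sign turned with the setting (−0.17 to 0.18), and goes from −0.50 to 0.33 between D0 and D4 in DDR-Sen and to −0.27 at D16. Its DDR-Sen D4 value ranged from 0.05 to 0.33 over the alternative settings. The hsa-miR-222-5p value at PMD-Sen D0 rests on 1 count and is no bound.

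At D16, 16 days after washout, hsa-miR-222-3p was lower than in Ctrl in both induced states. It was at 47710.4 and 60789 CPM in PMD-Sen D16 and at 57689.6 and 52968 CPM in DDR-Sen D16, all under the Ctrl libraries. The change was −0.51 ± 0.16 (SE) on the log2 scale in PMD-Sen (1.43-fold, adjusted p = 0.0259) and −0.48 ± 0.16 in DDR-Sen (1.40-fold, adjusted p = 0.0241). Both comparisons use the same 2 Ctrl libraries. Of the 4 members 1 was called in each, against 16.7% of all tested miRNAs in PMD-Sen and 23.1% in DDR-Sen, and both calls were lost without the second Ctrl library (−0.37 and −0.34). The PMD-Sen call was also lost without the first D16 library (−0.35), and the DDR-Sen call without the first (−0.50) or the second (−0.42). With no filter on low counts both calls were lost as well (−0.43 in each). hsa-miR-221-3p was at 16874 and 19506 CPM in PMD-Sen D16 and at 18627 and 18228 CPM in DDR-Sen D16, with differences from Ctrl of −0.29 (95% interval −0.61 to 0.04) and −0.27 (−0.59 to 0.06). With 1 library left out these differences ranged from −0.45 to −0.10 and from −0.43 to −0.08. hsa-miR-221-5p was at 1249.8 and 1213 CPM in PMD-Sen D16 and at 1237 and 1189 CPM in DDR-Sen D16. Its differences were −0.43 (adjusted p = 0.168) and −0.45 (adjusted p = 0.148). hsa-miR-222-5p was counted 40 and 8 times in PMD-Sen D16 and 7 and 3 times in DDR-Sen D16.

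RS was lower still than the D16 states for hsa-miR-222-3p. The difference of PMD-Sen D16 minus RS was 0.51 ± 0.16 (SE; adjusted p = 0.0363) and that of DDR-Sen D16 minus RS was 0.54 ± 0.16 (adjusted p = 0.0396). All 4 members were higher at D16 than in RS in both comparisons and 1 of 4 passed in each, against 9.17% and 4.44% of all tested miRNAs. Both comparisons use the same 2 RS libraries. The median difference was 0.44 and 0.47 over the members, and 0.03 and −0.05 over all tested miRNAs. For hsa-miR-221-3p the differences were 0.38 (95% interval 0.06 to 0.70, adjusted p = 0.113) and 0.40 (0.08 to 0.72, adjusted p = 0.179). Leaving out any 1 of the compared libraries took the adjusted p of hsa-miR-222-3p above 0.05 in both.

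From D0 to D8 no member passed against Ctrl on any day in either series with edgeR. The share of all tested miRNAs called on those days in PMD-Sen was 0.278% at D0, 2.22% at D1, 2.5% at D2, 0.278% at D3, 3.89% at D4, 6.67% at D6 and 10% at D8. In DDR-Sen it was 0% at D0, 0.278% at D1, 0.278% at D2, 4.44% at D3, 6.67% at D4, 10.6% at D6 and 11.4% at D8. At an unadjusted p under 0.05, over all 8 days, hsa-miR-221-3p passed on 0 days in PMD-Sen and 2 in DDR-Sen. hsa-miR-222-3p passed on 4 and 3 days, hsa-miR-221-5p on 2 and 0. At that threshold 9.72% to 33.9% of all tested miRNAs passed on single days after SDS, and 9.44% to 34.2% after DXR. hsa-miR-222-5p passed on 0 days in both. It was counted 1 and 0 times at PMD-Sen D0, under the floor of 3 counts in both libraries, and no fold is given for it there.

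Around the SDS exposure hsa-miR-221-5p lay under its Ctrl values, without passing the adjusted threshold in the edgeR fit of all 36 libraries. It was at 1266 and 690.0 CPM at PMD-Sen D0, 1155 and 960.2 CPM at D1 and 1508 and 1028 CPM at D2, all under both Ctrl libraries. At D3 it was at 1619 and 1695 CPM, within the Ctrl range, and at D4 at 1199 and 1734 CPM. It was again under both Ctrl libraries at D6 (1265 and 1240 CPM), D8 (1409 and 1292 CPM) and D16. The difference from Ctrl was −0.75 ± 0.23 (SE) at D0 and −0.64 ± 0.23 at D1, with adjusted p = 0.133 and 0.149 in edgeR. DESeq2, which was an alternative, called both (−0.79 with adjusted p = 0.024, and −0.69 with 0.0261), and these were its only calls of a member from D0 to D8. At PMD-Sen D0 the value rests on 138 and 62 counts, and was −1.26 without the first of these libraries, which passed with edgeR (adjusted p = 0.0176), and −0.39 without the second (adjusted p = 0.633). With 1 library left out, the D1 value ranged from −0.79 to −0.52. After DXR the same strand was at 1507 and 1486 CPM at D0, 1721 and 1647 at D1 and 1754 and 1801 at D2, and the D1 difference of PMD-Sen minus DDR-Sen was −0.67 with edgeR (adjusted p = 0.083), and passed with DESeq2 (−0.69, adjusted p = 0.0286) and with edgeR on unfiltered counts (−0.91, adjusted p = 0.0425).

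The course of hsa-miR-221-3p over the days is described here for each series. The difference between the series from early to late days, tested below, was −0.42 (−0.22 with no filter on low counts). Its call was lost with either replicate left out. After SDS the D0 libraries were at 21720.4 and 22503 CPM, above all 14 libraries of D1 to D16, which ranged from 16348 to 19772 CPM with a median of 18467. After DXR it started low, at 16283 and 15045 CPM at D0, the lowest condition apart from RS. It was at 20079 and 17952 CPM at D1 and at 21030.3 and 18307 CPM at D2. The high days were D3 (26047 and 24560.0 CPM), D4 (28663 and 26928 CPM), D6 (29370.2 and 24310.0 CPM) and D8 (25916 and 23457 CPM). By D16 it was back at 18627 and 18228 CPM. The 8 libraries of D3 to D8 were all above the other 8 DDR-Sen libraries and above all 16 PMD-Sen libraries. These days were grouped after the levels had been seen, and how many tested miRNAs part in this way was not counted. As a share of all counts, without TMM scaling, these 8 libraries overlapped with PMD-Sen D0 (2.27% and 2.48%). The highest mean share was that of DDR-Sen D6 (2.51%, with 2.44% at D4).

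hsa-miR-222-3p had a similar course after DXR. It was at 55972 and 54881 CPM at D0, 59919.6 and 60246 at D1, and 67001 and 67004 at D2. It reached 74994 and 76356 CPM at D3 and 85225 and 87148 CPM at D4, the highest mean of the 18 conditions, and the 2 D4 libraries lay above those of all other conditions. This order rests on TMM scaling: as a share of all counts hsa-miR-222-3p was highest in Ctrl (8.18% ± 1.25, SD, n = 2) and at 7.56% ± 0.351 in DDR-Sen D4, and D4 minus Ctrl was 0.16 with TMM and −0.11 with library totals alone. D6 then had 82612 and 75444 CPM, D8 had 69052 and 72354, and D16 had 57689.6 and 52968. After SDS it was at 68786 and 48568 CPM at D0, which are the values of the 2 smallest libraries and lie far apart. From D1 to D16 the 14 PMD-Sen libraries ranged from 47710.4 to 76785 CPM with a median of 63736, highest at D4 (65468 and 76785 CPM).

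A test of any difference among the 8 days of a series, chosen after the levels had been seen, passed in DDR-Sen for hsa-miR-221-3p (F = 7.16, adjusted p = 0.00142, edgeR) and hsa-miR-222-3p (F = 4.68, adjusted p = 0.0154). These were 2 of 4 members, where 13.9% of all tested miRNAs passed. In PMD-Sen 0 of 4 passed with edgeR, where 20.3% of all did, and 0 had an unadjusted p under 0.05, where 32.5% of all did. The DDR-Sen result of hsa-miR-222-3p was lost when libraries were scaled by their totals alone (F = 2.78, adjusted p = 0.105), and with no filter on low counts both were lost (F = 3.22 with adjusted p = 0.0541 for hsa-miR-221-3p, and 2.15 with 0.405 for hsa-miR-222-3p).

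The planned comparison set the mean of D6, D8 and D16 (late) against that of D0, D1 and D2 (early). In DDR-Sen hsa-miR-221-3p rose by 0.35 ± 0.09 (SE) on the log2 scale, 1.28-fold, with adjusted p = 0.00415. hsa-miR-222-5p fell by 1.39 ± 0.50 (SE; adjusted p = 0.0342), with 36 counts in the 6 late and 99 in the 6 early libraries, a ratio of shares of 0.418 (95% counting interval 0.277 to 0.618). This interval covers counting error only. Of the late libraries 2 were at or under the floor of 3 counts, and of the early libraries 0. hsa-miR-222-3p differed by 0.16 (95% interval −0.03 to 0.34) and hsa-miR-221-5p by −0.29 (adjusted p = 0.0915), which passed under 4 of 10 alternative settings (−0.41 to −0.30). Thus 2 of 4 members passed, 1 in each direction, against 27.8% of all tested miRNAs. Both calls were lost without replicate 1 of every condition (0.43 with adjusted p = 0.136, and −1.72 with 0.119) and without replicate 2 (0.36 with 0.0796, and −0.94 with 0.273). In PMD-Sen 0 of 4 passed with edgeR, against 33.6% of all, and 0 had an unadjusted p under 0.05, against 44.4%. There hsa-miR-221-3p differed by −0.06 (95% interval −0.25 to 0.12) and hsa-miR-222-3p by −0.08 (−0.26 to 0.10). The difference between the series in this change was −0.42 ± 0.13 (SE; adjusted p = 0.0281) for hsa-miR-221-3p, 1 of 4 members, against 15.6% of all. It was lost with either replicate left out (−0.42 with adjusted p = 0.538, and −0.49 with 0.117), and with no filter on low counts it was −0.22. It was 0.50 ± 0.18 (adjusted p = 0.0571) for hsa-miR-221-5p, of the opposite sign, and passed under 6 of 10 alternative settings (0.49 to 0.70). With a replicate of every condition left out, the hsa-miR-221-5p value ranged from 0.29 to 0.70. The rise of hsa-miR-221-3p was 0.23 (adjusted p = 0.0545) when the scaling left out the members and the 10 most abundant miRNAs.

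Set directly against each other on matched days, PMD-Sen was lower than DDR-Sen in hsa-miR-221-3p at D4 and over D1 to D16 as a whole. At D4 the PMD-Sen libraries were at 18033 and 18120.5 CPM, under both DDR-Sen libraries, and the difference was −0.62 ± 0.16 (SE; 1.54-fold, adjusted p = 0.0292). This was 1 of 4 members, against 3.33% of all tested miRNAs. The call was lost with libraries scaled by their totals alone (−0.40, adjusted p = 0.153), with no filter on low counts (−0.51, adjusted p = 0.544) and in a fit of the compared libraries only (−0.54, adjusted p = 0.205), and leaving out any 1 of the 4 libraries took the adjusted p above 0.05 with values of −0.67 to −0.55. On the other days 0 of 4 members passed with edgeR. At an unadjusted p under 0.05 there were 2 members at D0, 1 at D1, 1 at D2, 1 at D3, 2 at D6, 1 at D8 and 0 at D16, and 10.0% to 20.8% of all tested miRNAs passed at that threshold. At the adjusted threshold, of all tested miRNAs 1.67% were called at D0, 1.94% at D1, 4.17% at D2, 0.833% at D3, 0.278% at D6, 0% at D8 and 0.556% at D16. The differences of hsa-miR-221-3p were 0.50 at D0, −0.07 at D1, −0.14 at D2, −0.49 at D3, −0.57 at D6, −0.37 at D8 and −0.02 at D16. Over the alternative settings those at D3, D6 and D8 shrank to as little as −0.28, −0.32 and −0.21. The D0 difference, of the opposite sign, passed with library totals alone (0.58, adjusted p = 0.0328), with a minimum mean of 10 counts (0.59, adjusted p = 0.0271) and with libraries thinned to the smallest total (0.59, adjusted p = 0.0433). On D1 and D2 the sign turned with scaling by totals alone (0.06 and 0.10).

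Over D1 to D16 together the difference of hsa-miR-221-3p was −0.33 ± 0.06 (SE; 1.25-fold, adjusted p = 0.000201), 1 of 4 members, where 20% of all tested miRNAs were called. It was −0.15 (adjusted p = 0.0426) with library totals alone, and without replicate 1 of every condition −0.28 (adjusted p = 0.121). hsa-miR-222-3p differed by −0.15 (adjusted p = 0.0617), which became 0.02 with library totals alone. hsa-miR-221-5p differed by −0.19 (adjusted p = 0.101), which shrank to as little as −0.03 over the alternative settings. The difference of hsa-miR-222-5p was 0.81 ± 0.32 (SE; adjusted p = 0.0646), towards more in PMD-Sen, and passed under 5 of 9 alternative settings (0.83 to 0.97), the replicate block among them (0.86, adjusted p = 0.0385).

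**Figure D3:**
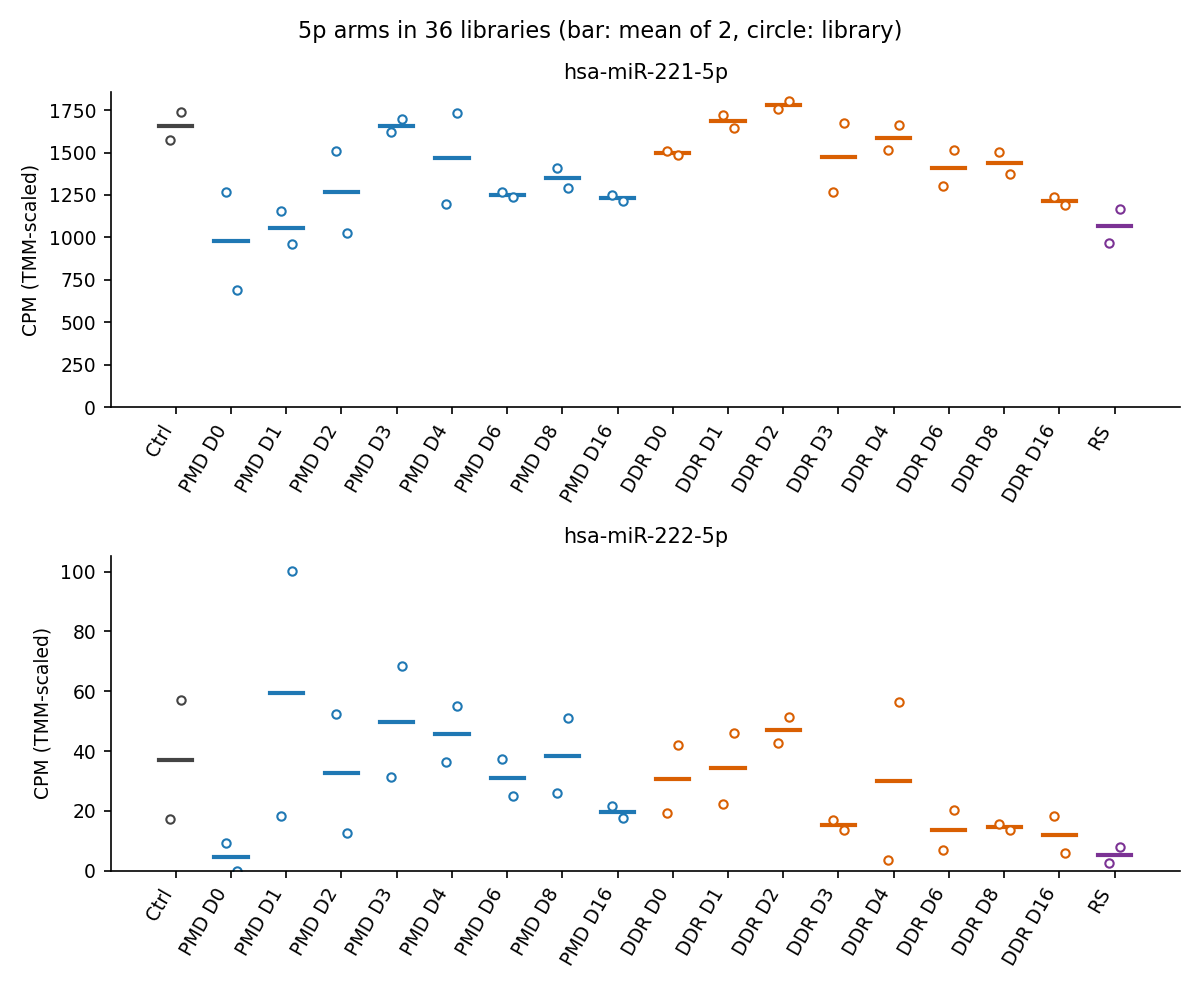
Level of hsa-miR-221-5p (top) and hsa-miR-222-5p (bottom) in CPM on a linear axis from 0, by condition, with a circle for each library and a bar for the mean of 2. The hsa-miR-222-5p libraries of 1 condition often lie far apart, as at PMD-Sen D1 (18.3 and 100.4 CPM), and rest on few counts.

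In the order of the 18 conditions most neighbours overlapped between libraries. For hsa-miR-221-3p the means ran from 27795 ± 1227 CPM (SD, n = 2) in DDR-Sen D4 to 13961 ± 1261 CPM in RS, 1.99-fold. Of the 17 pairs of neighbours in that order 3 did not overlap between libraries: PMD-Sen D0 above DDR-Sen D2, PMD-Sen D2 above DDR-Sen D0, and DDR-Sen D0 above RS. The 4 highest means were DDR-Sen D4, D6, D3 and D8, followed by Ctrl (22165 ± 3725 CPM). For hsa-miR-222-3p the means ran from 86186 ± 1360 CPM in DDR-Sen D4 to 38146 ± 4314 CPM in RS, 2.26-fold, and 5 of 17 neighbours did not overlap, among them the first and the last. The first gap rests on TMM scaling. As a share of all counts Ctrl was highest (7.30% to 9.06%) and overlapped with DDR-Sen D4 (7.31% to 7.81%). For hsa-miR-221-5p the range was 1778 ± 33.2 CPM in DDR-Sen D2 to 978 ± 408 CPM in PMD-Sen D0, with 3 of 17 apart, and for hsa-miR-222-5p 1 of 17 was apart. No test was made between neighbours in these orders, and the pairs apart were not counted over all tested miRNAs.

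Within each library the 3p arm was far above the 5p arm, and the 3p to 5p ratio of miR-221 moved along DDR-Sen. This ratio compares both arms in 1 library and needs no scaling between libraries. For miR-221 it was 12.4 and 14.3 in Ctrl and 13.5 and 12.7 in RS. In DDR-Sen the 6 early libraries lay between 10.1 and 12.0 and the 6 late libraries between 15.0 and 22.6. How many of the tested hairpins part in this way was not counted, and the 6 libraries of a phase came from 3 days. In PMD-Sen the early libraries lay between 12.5 and 32.4 and the late libraries between 13.3 and 16.1. The highest value, 32.4, was that of the smallest library, PMD-Sen D0 replicate 2, with 62 counts of hsa-miR-221-5p. For miR-222 the ratio ranged from 621 to 16227 over the 36 libraries. The 16227, in DDR-Sen D4 replicate 1, rests on 1 count of hsa-miR-222-5p, under the floor of 3 counts, and is no exact ratio.

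**Figure D4:**
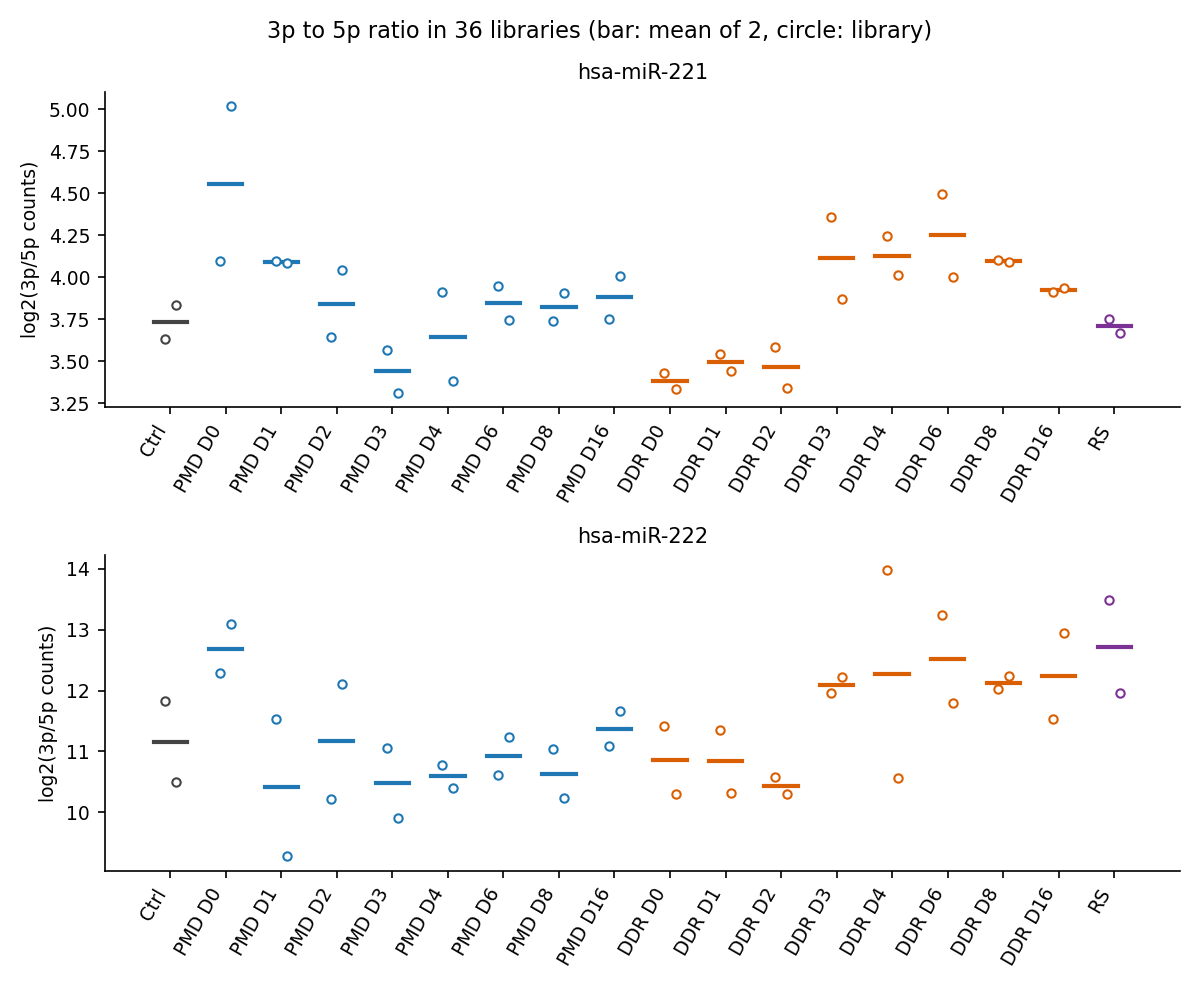
Log2 of the 3p to 5p count ratio, by condition, for miR-221 (top) and miR-222 (bottom), with 0.5 added to each count, a circle for each library and a bar for the mean of 2. The miR-221 ratio of the DDR-Sen libraries lies between 3.34 and 3.58 at D0 to D2 and between 3.91 and 4.50 at D6 to D16.

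Of 63 hairpins with a mean of at least 10 counts on both arms, miR-221 rose by 0.64 ± 0.16 (SE) on the log2 scale from early to late in DDR-Sen (adjusted p = 0.0192, limma), the second lowest p. This was 1 of the 2 member hairpins, against 3.17% of all 63, and the call was lost with either replicate left out while the value stayed at 0.63 and 0.65 (adjusted p = 0.331 and 0.259). miR-222 differed by 1.59 ± 0.53 (adjusted p = 0.0728). In PMD-Sen the differences were −0.31 for miR-221 (adjusted p = 0.160) and −0.44 for miR-222 (adjusted p = 0.539), 0 of 2 called by limma, against 19% of all hairpins, and 0 at an unadjusted p under 0.05, against 33.3%. With a replicate left out the miR-221 value ranged from −0.49 to −0.13, and an alternative setting gave −0.19 for miR-222. The difference between the series in this change was −0.96 ± 0.23 (SE; adjusted p = 0.0113) for miR-221 and −2.03 ± 0.75 (adjusted p = 0.117) for miR-222, 1 of 2, against 6.35%. The miR-221 call was lost with either replicate left out (−1.13 with adjusted p = 0.158, and −0.78 with 0.117). Over D1 to D16, PMD-Sen minus DDR-Sen gave −0.13 for miR-221 and −0.99 for miR-222, 0 of 2 by limma, against 1.59%, and 1 at an unadjusted p under 0.05, against 20.6%. Against Ctrl, 0 of 2 were called at PMD-Sen D16 (11.1% of all), DDR-Sen D16 (4.76%) or RS (7.94%) by limma, and 0 at an unadjusted p under 0.05 (19.0%, 19.0% and 20.6% of all). There miR-221 differed by 0.15, 0.19 and −0.02 and miR-222 by 0.21, 1.08 and 1.56. The miR-222 values had an SE of 0.92. With 1 library left out they ranged from −0.45 to 0.88, from 0.38 to 1.79 and from 0.79 to 2.33. The SE of the miR-221 value in RS was 0.28.

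**Figure D5:**
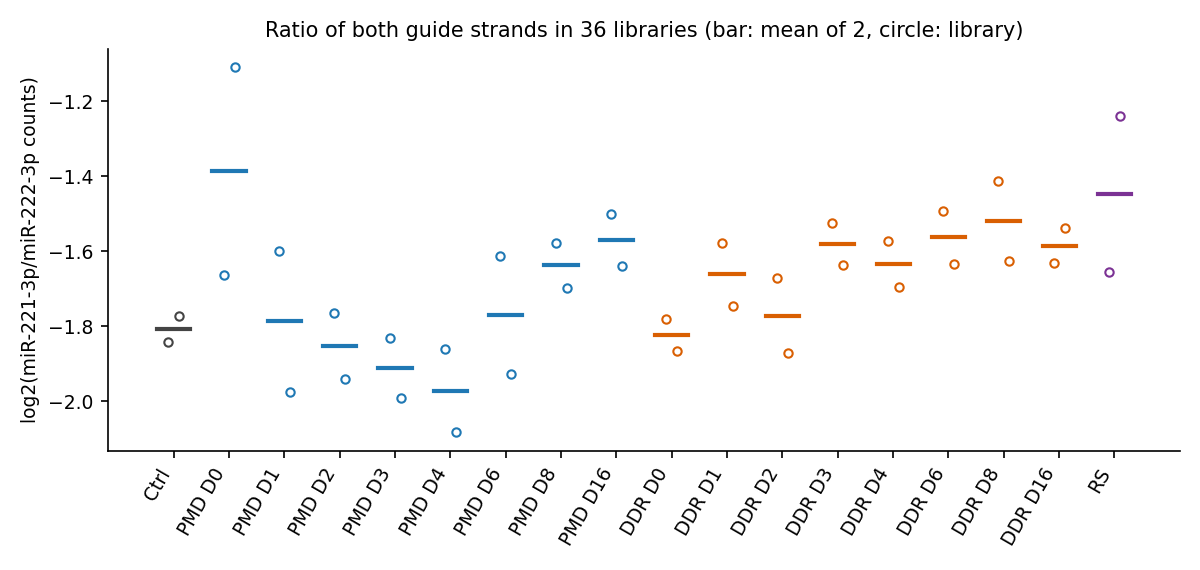
Log2 of the ratio of hsa-miR-221-3p to hsa-miR-222-3p counts, by condition, with a circle for each library and a bar for the mean of 2. In DDR-Sen the early libraries (D0 to D2) lie between −1.87 and −1.58 and the late ones (D6 to D16) between −1.63 and −1.41.

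The ratio of the 2 guides, neighbours in 1 transcript with 1 seed, varied between libraries, also between replicates of 1 condition. hsa-miR-222-3p was counted 2.16 to 4.24 times as often as hsa-miR-221-3p, with a median of 3.16 times. The 2.16 came from PMD-Sen D0 replicate 2, the smallest library, and replicate 1 gave 3.17. At PMD-Sen D1 the replicates gave 3.03 and 3.93. In Ctrl hsa-miR-222-3p was counted 3.58 and 3.42 times as often, and in RS 3.15 and 2.36 times. Along DDR-Sen the log2 ratio of hsa-miR-221-3p to hsa-miR-222-3p rose from −1.75 ± 0.11 (SD, n = 6) in the early to −1.56 ± 0.09 (SD, n = 6) in the late libraries. The difference was 0.20 (p = 0.0152, exact 2-sided permutation test over 924 splits, 0.0303 adjusted over both series), and the groups overlapped. Within conditions the ratio was higher in replicate 1 than in replicate 2 in 7 of 8 conditions of each series. With late and early exchanged only within a replicate number, the exact permutation test gave p = 0.01. Along PMD-Sen it was 0.02 (p = 0.918, exact permutation test). The difference between these 2 values was not tested. The 6 libraries of a phase came from 3 days. Ligation and amplification can favour 1 of 2 sequences, so the ratio of 1 miRNA to another is no ratio of molecules.

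Over the 18 condition means of log2 CPM the profiles of hsa-miR-221-3p and hsa-miR-222-3p had a Pearson r of 0.81 (Spearman 0.61). For the arms of 1 hairpin r was 0.28 for hsa-miR-221-3p and hsa-miR-221-5p, and 0.34 for hsa-miR-222-3p and hsa-miR-222-5p. It was 0.57 for hsa-miR-222-3p and hsa-miR-221-5p, −0.19 for hsa-miR-221-3p and hsa-miR-222-5p, and 0.58 for both 5p arms. Values with hsa-miR-222-5p rest on its few counts, and differences between r values were not tested. The points of each correlation share their libraries and scaling, and r is a description. Among the other tested miRNAs the 5 profiles most like that of hsa-miR-221-3p were miR-574-5p (0.86), miR-574-3p (0.79), let-7b-5p (0.76), let-7a-5p (0.73) and let-7d-3p (0.70). Those most like hsa-miR-222-3p were miR-505-3p (0.85), let-7d-3p (0.83), miR-484 (0.74), miR-532-5p (0.73) and miR-574-5p (0.73). The median r over all tested miRNAs was 0.05 for hsa-miR-221-3p and 0.06 for hsa-miR-222-3p.

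Other miRNAs described as acting on the same family of CDK inhibitors were set beside the members. The list for CDKN1A (p21), the family member induced by p53, held 6 miRNAs of the miR-17 seed family, 4 of them tested. In RS 4 of 4 fell, with a median change of −2.33, in PMD-Sen D16 3 of 4 fell (median −1.07) and in DDR-Sen D16 3 of 4 (median −1.68). Of all tested miRNAs, 22.5%, 16.7% and 23.1% were called in these comparisons in either direction, with medians of 0.12, 0.05 and −0.03. The changes of miR-93-5p, the most abundant, were −1.97 in RS, −0.93 in PMD-Sen D16 and −1.27 in DDR-Sen D16, and those of miR-17-5p were −2.70, −1.53 and −2.35. The list of other miRNAs for CDKN1B held 5, of which 3 were tested, and there 0 fell in RS and 2 of 3 rose (median 0.55). miR-181a-5p rose by 1.90 in RS, 0.87 in PMD-Sen D16 and 0.70 in DDR-Sen D16. miR-24-3p, as abundant as hsa-miR-221-3p with 21245 CPM on average, rose by 0.55 in RS (adjusted p = 0.0473, edgeR) and differed by 0.21 and 0.17 at D16. For CDKN1C, 2 of 3 fell in RS (median −1.75), 1 of 3 in PMD-Sen D16 and 2 of 3 in DDR-Sen D16. Of these, miR-92a-3p changed by −1.87, −1.22 and −1.86, and miR-92b-3p differed by −0.18, −0.75 and −0.71 without passing.

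From early to late days in DDR-Sen, where hsa-miR-221-3p rose, 3 of 4 of the CDKN1A list fell (median −1.07), 2 of 3 of the CDKN1C list fell, and of the CDKN1B list 1 rose and 1 fell, where 27.8% of all tested miRNAs were called and their median was 0.03. In that comparison miR-24-3p fell by 0.39 and miR-93-5p fell by 0.83. In PMD-Sen 3 of 4 of the CDKN1A list and 3 of 3 of the CDKN1C list fell, and 1 of 3 of the CDKN1B list rose, where 33.6% of all were called and their median was −0.03.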

How the data were processed

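Small RNA libraries were prepared by the authors from 100 ng of total RNA (NEXTFLEX Small RNA-Seq Kit v3, 17 PCR cycles, sequenced on a MiSeq) and processed with exceRpt 4.6.2, which trimmed adapters, mapped to GRCh38 and assigned reads to miRBase miRNAs. The deposited values are estimated counts, because a read that fits several miRNAs is shared among them: 1003 of 54288 values were not whole, and 0 of the 144 values of the members. They were rounded. Reads assigned to other RNA classes were not analysed here. Libraries held 81668 to 1933435 counts. The sources used here name no counting of molecular identifiers, so intervals and floors cover counting error only.

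The 4 members and the comparison lists were chosen with earlier results of these data known. All 36 libraries entered 1 edgeR 4.0.16 fit (R 4.3.3) with a coefficient for each of the 18 conditions, TMM scaling and filterByExpr, which kept 360 of 1508 miRNAs and at least 99.8% of each library's counts. The quasi-likelihood test was used, with Benjamini-Hochberg adjustment over all 360, and a call is an adjusted p under 0.05. With 2 libraries per condition the fit shares 1 estimate of the spread over all conditions (biological coefficient of variation 20.9%). The authors used DESeq2 with an unadjusted p under 0.05 and an absolute log2 fold change above 1, which served as an alternative call rule, beside DESeq2 1.42.0 itself. Log2 CPM used a prior count of 2. Ratios of 3p to 5p were tested with limma 3.58.1 on log2 ratios with 0.5 added to each count, and the ratio of both guides with an exact permutation test. Scripts were tested on simulated data. The text names the 4 members, of each list the 2 tested miRNAs with the highest mean count, and the 5 miRNAs most like each guide, beside examples from the cell type marker lists, some chosen after their values were seen. Coordinates and sequences are RefSeq's and GENCODE's on GRCh38.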

Additional observations from a re-analysis of the deposited data

Results flagged for a closer look

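The following results were singled out because an effect differed between PMD-Sen and DDR-Sen by a test of the difference itself, with edgeR for levels and limma for the arm ratio. For hsa-miR-221-3p, PMD-Sen minus DDR-Sen was −0.62 at D4 (adjusted p = 0.0292) and −0.33 over D1 to D16 (adjusted p = 0.000201). With library totals alone the D4 value was −0.40 and not called, and the D1 to D16 value was −0.15. The late minus early change of hsa-miR-221-3p was −0.42 in PMD-Sen relative to DDR-Sen (adjusted p = 0.0281), and −0.22 with no filter on low counts. The change of the miR-221 3p to 5p ratio was −0.96 in PMD-Sen relative to DDR-Sen (adjusted p = 0.0113). The first call and the last 2 were lost with each leave-out tried, of 1 library or of a replicate of every condition, and the second without replicate 1. PMD-Sen D0, which enters the last 2 values, held the smallest libraries. With all libraries thinned to the smallest total the level change was −0.40 (adjusted p = 0.0320), and the arm ratio was not thinned.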

How the results depend on the processing

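Over 1662 alternative log2 fold changes of the members none reversed a call. All 171 alternatives of called results kept their direction and 113 stayed past the threshold. Of 1491 alternatives of results that were not called, 106 changed sign and 29 passed. The largest shift of the median of all miRNAs was −0.26, at DDR-Sen D4 with library totals alone. hsa-miR-222-5p rested on a median of 10 counts per library.

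With no filter on low counts, more miRNAs entered the fit, and these calls were lost: hsa-miR-221-3p DDR-Sen late minus early (0.30) and its difference between the series (−0.22), hsa-miR-222-3p in PMD-Sen D16 (−0.43) and DDR-Sen D16 (−0.43) and against RS (0.55 and 0.55), hsa-miR-221-5p in RS (−0.57), and the tests among the DDR-Sen days (F = 2.15 for hsa-miR-222-3p and 3.22 for hsa-miR-221-3p). With library totals alone F was 2.78 for hsa-miR-222-3p, and the hsa-miR-221-3p difference at D4 was lost (−0.40), as it was with no filter (−0.51) and with only the compared libraries (−0.54). A fit of only the compared libraries gave no call for hsa-miR-221-3p in RS (−0.70) or hsa-miR-221-5p in RS (−0.67). Nor did it for hsa-miR-222-3p at D16 against RS (0.46 and 0.56) or the hsa-miR-221-3p difference between the series (−0.36). Scaling without the members and the 10 most abundant miRNAs lost hsa-miR-221-3p DDR-Sen late minus early (0.23) and its difference between the series (−0.34). The causes of these losses were not tested.

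Under the thresholds of the study, which ask for a change above 1, the values −0.67, −0.63, −0.51, −0.48, 0.51, 0.54, 0.35, −0.42, −0.33 and −0.62 were not called, and 1.82 (hsa-miR-222-5p, difference between the series) was. By edgeR with adjustment this last value was not called (adjusted p = 0.146), and it ranged from 0.73 to 1.42 with a replicate left out.

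Other results passed only under an alternative. The hsa-miR-221-5p difference between the series passed with DESeq2 size factors (0.53), scaling without the members (0.59), no filter (0.70), a mean of at least 10 counts (0.49), DESeq2 (0.53) and only the compared libraries (0.57). Its DDR-Sen late minus early change passed with scaling without the members (−0.41), a mean of at least 10 counts (−0.31), DESeq2 (−0.30) and only the compared libraries (−0.35), and its PMD-Sen D16 change with DESeq2 (−0.51) and only the compared libraries (−0.54). hsa-miR-222-5p over D1 to D16 passed with library totals (0.97), no filter (0.83), a mean of at least 10 counts (0.84) and DESeq2 (0.87). hsa-miR-221-5p at PMD-Sen D0 and D1 passed with DESeq2 (−0.79 and −0.69), at D0 also without the first PMD-Sen D0 library (−1.26), and its PMD-Sen minus DDR-Sen difference at D1 passed with DESeq2 (−0.69) and no filter (−0.91). hsa-miR-221-3p at D0, PMD-Sen minus DDR-Sen, passed with library totals (0.58), a mean of at least 10 counts (0.59) and thinned libraries (0.59). hsa-miR-222-3p over D1 to D16 passed with scaling without the members (−0.17) and only the compared libraries (−0.15).

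Over all tested miRNAs, samples with the same replicate number did not deviate together in every pair of conditions (correlation −0.458 to 0.366 over 153 pairs of conditions, 53 above 0.1). The replicate block moved 1 call, hsa-miR-222-5p over D1 to D16 (0.86, adjusted p = 0.0385), and changed no other. For the guide ratio, whose replicate 1 was the higher in 14 of 18 conditions, a block added after seeing the data gave p = 0.01 in DDR-Sen and 0.945 in PMD-Sen (exact permutation test over 400 splits).

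Leaving out libraries gave the ranges below. Where 1 library was left out, the library left alone in its condition is assumed to vary like the others. For comparisons over several days a replicate of every condition was left out. Each condition then kept 1 library, with no second one to give the spread within it. Against Ctrl in RS the ranges were −0.90 to −0.48 for hsa-miR-221-3p, −0.91 to −0.51 for hsa-miR-221-5p and −4.01 (on 1 count in RS) to −1.56 for hsa-miR-222-5p. For hsa-miR-222-3p they were −0.70 to −0.35 at PMD-Sen D16, −0.62 to −0.34 at DDR-Sen D16, and 0.32 to 0.67 and 0.56 to 0.66 for both against RS. For hsa-miR-221-3p at PMD-Sen D16 against RS they were 0.27 to 0.60, with a call only without the second RS library. In DDR-Sen late minus early they were 0.36 to 0.43 for hsa-miR-221-3p and −1.72 to −0.94 for hsa-miR-222-5p, and both calls were lost each time. For hsa-miR-221-3p they were −0.49 to −0.42 for the difference between the series (lost each time), −0.36 to −0.28 over D1 to D16 and −0.67 to −0.55 at D4 (lost each time). The miR-221 arm ratio gave 0.63 to 0.65 in DDR-Sen and −1.13 to −0.78 between the series, and both calls were lost each time. The guide ratio gave 0.16 to 0.23, where the exact permutation test of 3 libraries against 3 cannot give a p under 0.1. Of the 5 miRNAs most like each guide, 3 and 3 were shared with the order by Spearman, and 3 and 5 with that over single libraries.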
